A study of Homo sapiens with 6 samples.

Results

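The proteasome genes described here are 47 protein-coding genes whose symbols run from PSMA to PSMG followed by a digit, out of 58735 genes in the deposited table. PSMB8 and PSMB9 were left out by the rule and are given only for comparison. Of the 47 genes, 46 encode subunits, activators, an inhibitor or assembly factors of the proteasome. The remaining one, PSMC3IP, carries a proteasome-like symbol but encodes a cofactor of meiotic recombination, and it was kept as a member by its name. RNA was sequenced from 3 libraries of Hep3B, a human liver cancer line, carrying a short hairpin RNA (shRNA) against HYOU1, and from 3 libraries of the same line carrying a control shRNA. The number of hairpins used, the vector, the time after its delivery and whether the cells were a clone or a pool were not stated in the sources used. Nor do the labels tell whether replicates of a group came from separate cultures, so p-values measure only the spread among these libraries, which could be technical.

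The proteasome degrades proteins tagged with ubiquitin. Its core particle stacks an outer ring of alpha subunits (PSMA), which gates entry, on an inner ring of beta subunits (PSMB), some of which cut peptide bonds. The regulatory particle sits on the core. Its ATPases (PSMC) unfold and feed in the substrate, and its other subunits (PSMD) bind ubiquitin, remove it and hold the parts together. Dedicated chaperones (PSMG, and PSMD5, PSMD9 and PSMD10 for the ATPases) help assembly, and other activators (PSME) can open the core in place of the regulatory particle. HYOU1, the targeted gene, encodes a chaperone inside the endoplasmic reticulum (ER), and proteins that misfold there are extracted by the ATPase VCP and degraded by the proteasome. The transcription factor NFE2L1, itself held at the ER and processed when proteasome activity drops, is known to raise the expression of most proteasome genes.

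HYOU1 had levels of 2.35, 2.32 and 2.37 FPKM (fragments per kilobase of gene length and per unit of library size, as scaled by the authors) in HYOU1 shRNA replicates 1, 2 and 3, against 37.6, 58.2 and 59.5 FPKM in control shRNA replicates 1, 2 and 3. It was 20.8-fold lower (limma, adjusted p = 0.00119), and all 6 libraries lay on the side their labels give. Between 16893091 and 18233240 fragments per library were recovered from the FPKM steps. Control replicate 1 lay away from the rest along the GC content of transcripts, and counts of proteasome genes that passed are given with and without it. That library was singled out from these same values, so intervals without it can be too narrow and adjusted p-values too small. Mitochondrial genes held 3.39% to 3.84% of fragments in HYOU1 shRNA libraries and 4.96% to 7.59% in control libraries. Of 10 hepatocyte marker genes only HNF4A reached a mean of 1 FPKM over the 6 libraries. ALB, APOB and TTR were listed at 0 in all 6. FGB averaged 0.150 FPKM in HYOU1 shRNA libraries and 1.34 FPKM in control libraries. SERPINA1 averaged 0.478 FPKM in HYOU1 shRNA libraries and 0.0880 FPKM in control libraries. The labelled liver origin was thus not borne out by most of these markers. Of 4 epithelial markers, KRT8, KRT18, KRT19 and EPCAM averaged 300.3, 328, 2.32 and 3.76 FPKM in HYOU1 shRNA libraries and 207, 195, 5.60 and 2.31 FPKM in control libraries, and KRT18 alone passed. No blood, immune or endothelial marker of the 9 looked at reached a mean of 1 FPKM, and PTPRC, CD3E and LYZ were listed at 0 throughout. Among 4 fibroblast markers COL1A2 was listed at 0, COL1A1 was higher and DCN lower in HYOU1 shRNA libraries, with log2 fold changes of 1.09 and -1.35. The part of these differences in the results below was not tested.

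Most proteasome genes were well expressed in both groups. By their mean over the 6 libraries, 42 of 47 reached 1 FPKM and were tested, and the median over all 47 was 19.1 FPKM. PSMB7, PSMA7, PSMC3, PSMB3 and PSMB4 stood at the top, with means between 99.8 and 138 FPKM. PSMB7 encodes the trypsin-like catalytic subunit, PSMA7 and PSMB3 are structural members of the alpha and beta rings, and PSMC3 is one of the ATPases. The lowest of the tested members were PSMB10, at 1.40 FPKM, and PSMG4, at 2.36 FPKM. The summed level of all 47 genes was 1401, 1502 and 1501 FPKM in replicates 1, 2 and 3 of HYOU1 shRNA, against 1433, 1542 and 1646 FPKM in control replicates 1, 2 and 3. The sums of the groups overlapped. Bulk RNA cannot separate a lower level per cell from fewer cells that express a gene.

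**Figure D1:**
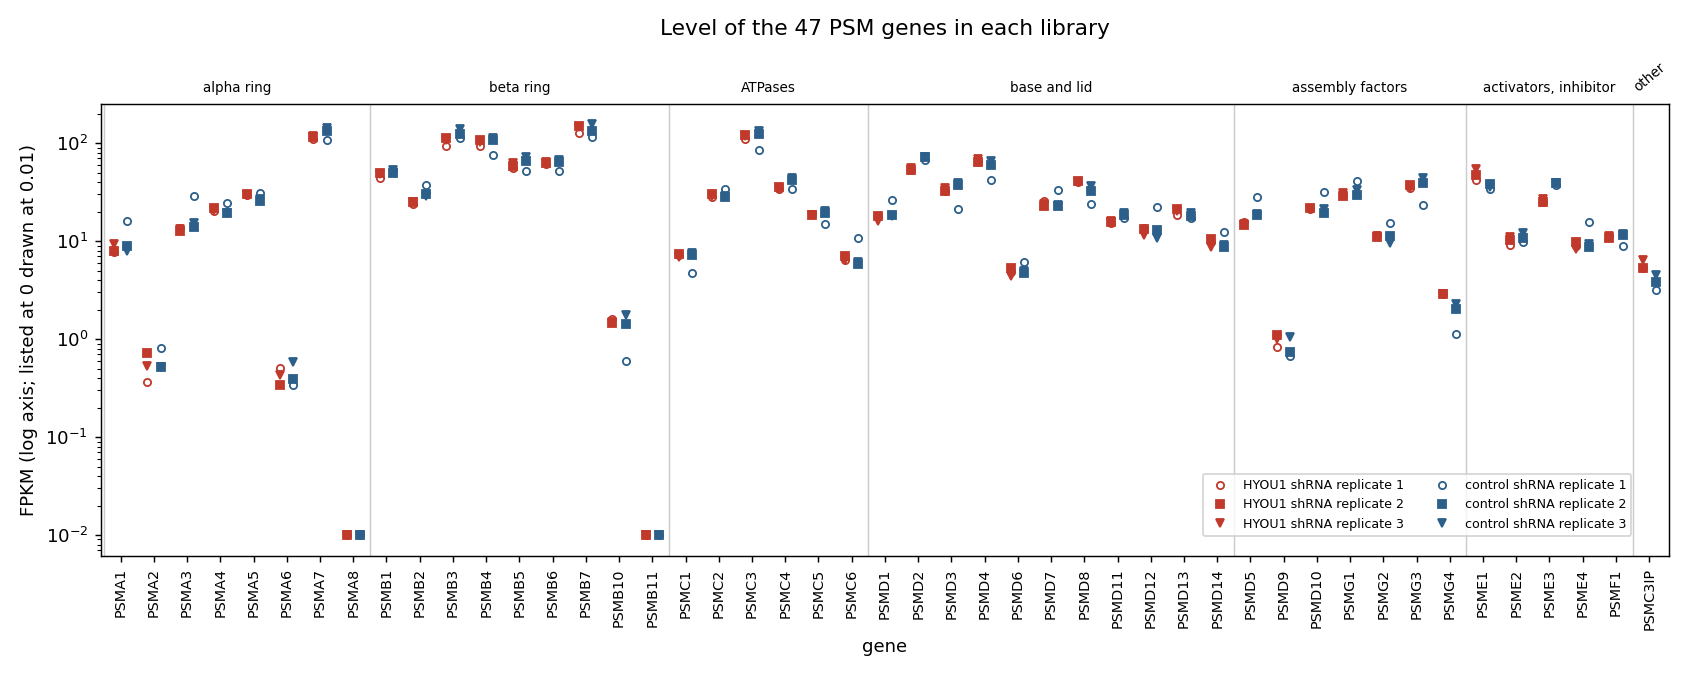
Level of each of the 47 genes in FPKM on a log axis, 1 point per library, with HYOU1 shRNA libraries in red at the left of each gene and control libraries in blue at the right; open circles are replicate 1. Most genes lie between 5 and 138 FPKM in both groups, PSMA2, PSMA6 and PSMD9 lie near or under 1 FPKM, and PSMA8 and PSMB11 are listed at 0.

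The 5 untested members differed in kind. PSMA8, an alpha subunit made in the testis, and PSMB11, a beta subunit of the thymus, had no fragment in any library. A count of 3 fragments, the limit that a count of 0 allows, amounts to no more than 0.0928 and 0.0833 FPKM for these genes. Such floors cover counting error only. PSMA2 and PSMA6, which are obligatory subunits of every core particle, were nevertheless at only 0.366 to 0.801 FPKM and 0.342 to 0.582 FPKM over the 6 libraries. PSMD9, an assembly chaperone of the ATPase ring, was at 0.674 to 1.10 FPKM. The alpha ring holds 1 copy of each of its subunits per ring, yet the means of PSMA3, PSMA4, PSMA5 and PSMA7 ranged from 16.3 to 121 FPKM.

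Several members share sequence with other annotated genes. Of the 100-base windows along the longest coding transcript of PSMA6, 80.3% also occur in transcripts of other annotated genes, and nearly all of them in AL121594.1, a protein-coding gene that overlaps it on the same strand. AL121594.1 itself was listed at 0 in all 6 libraries. For PSMA2, 49.2% of windows occur in AC010132.3, which averaged 0.00932 FPKM. For PSMA1, 39.1% occur in AC018523.2, listed at 0. How fragments that fit more than 1 gene were counted was not stated in the sources used. In all, 8 members shared at least 25% of windows, namely PSMA1, PSMA2, PSMA6, PSMB10, PSMC1, PSMC3IP, PSMD7 and PSMD9, and their median level was 3.08 FPKM, against 28.5 FPKM for the other 39. Levels of these 8 genes are therefore uncertain. PSMC1 shared the most, 95.5%, largely with NRDE2 on the other strand. No strand-marking step is named in the labels' protocols, and the role of strand in the counting is unknown here, so members with a partner on the other strand have uncertain levels.

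**Figure D2:**
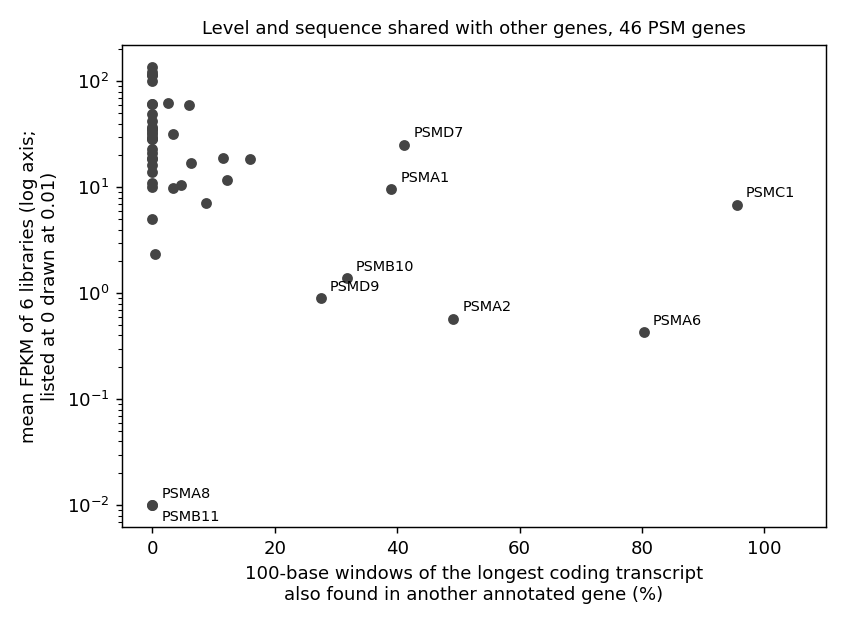
Mean FPKM over the 6 libraries (log axis) against the share of 100-base windows of the longest coding transcript that also occur in another annotated gene, 1 point per proteasome gene; PSMC3IP is left out. Of the genes with a level above 0, those with under 20% shared windows lie above 2 FPKM, while PSMA2, PSMA6 and PSMD9, with 49.2%, 80.3% and 27.5%, lie under 1 FPKM.

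Few proteasome genes passed the test between HYOU1 shRNA and control shRNA libraries. Among the 42 tested members there were 2 (4.76%) that fell and 0 that rose, and 40 did not pass (limma, adjusted p under 0.05). Of all 12448 tested genes 12.3% were called, 6.6% as higher and 5.66% as lower. The groups of subunits below hold at most 11 tested members each, so few or no calls do not set a group apart from that share. The members that fell were PSME3, an activator of the core in the nucleus, and PSMD2, the scaffold subunit at the base of the regulatory particle. The log2 fold changes of the 42 genes had a median of -0.07, and their size had a median of 0.15, where these were 0.04 and 0.34 over all tested genes. In 8 members all HYOU1 shRNA libraries were below all control libraries, and in 4 all were above. Together this is 28.6% of the 42, where 44.4% of all tested genes showed such a separation, 20.6% below and 23.8% above. Without control replicate 1 the groups were separate in 24 members (57.1%), 16 of them below and 8 above, where this held for 65.8% of all tested genes, 30.8% below and 35% above.

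PSME3 (ENSG00000131467, chromosome 17, 42824385 to 42843758 on GRCh38, plus strand) was at 25.3, 24.9 and 26.6 FPKM in replicates 1, 2 and 3 of HYOU1 shRNA, against 37.8, 39.1 and 38.8 FPKM in control replicates 1, 2 and 3. The groups did not overlap, and all 3 control libraries lay close together, control replicate 1 included. PSME3 averaged 25.6 ± 0.893 FPKM in HYOU1 shRNA libraries and 38.6 ± 0.691 FPKM in control libraries (SD, n = 3 each). On the log2 scale PSME3 fell by 0.59, with a standard error of 0.10 and an adjusted p of 0.0179 in limma. PSME3 did not pass without HYOU1 shRNA replicate 1, 2 or 3 (adjusted p = 0.114, 0.116 and 0.103) or control replicate 2 (adjusted p = 0.0746). Those fits called only 126, 85, 49 and 357 of all 12448 tested genes. The log2 fold change of PSME3 lay between -0.57 and -0.62 when any 1 library was left out.

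PSMD2 (ENSG00000175166, chromosome 3, 184298709 to 184309054, plus strand) was at 52.9, 53.6 and 55.3 FPKM in replicates 1, 2 and 3 of HYOU1 shRNA, against 67.8, 72.0 and 72.9 FPKM in control replicates 1, 2 and 3. Again every HYOU1 shRNA library was below every control library. It averaged 54.0 ± 1.24 FPKM in HYOU1 shRNA libraries and 70.9 ± 2.70 FPKM in control libraries (SD, n = 3 each). PSMD2 thus fell by 0.39 on the log2 scale, the standard error being 0.10 (limma, adjusted p = 0.0478). It passed narrowly. It was lost without any one of the HYOU1 shRNA replicates (adjusted p = 0.197, 0.193 and 0.181 without replicate 1, 2 and 3), without control replicate 2 (adjusted p = 0.132), without control replicate 3 (adjusted p = 0.102), or on the TPM scale (adjusted p = 0.0693). It did not pass with a filter at 0.1 FPKM, without a filter or without the variance trend either (adjusted p = 0.0643, 0.0917 and 0.0699). Without HYOU1 shRNA replicate 1, 2 or 3, only 126, 85 and 49 of all 12448 tested genes were called. Without control replicate 2 or 3 these counts were 357 and 1022.

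The promoter windows of these genes and of 2 further ones are shown because NFE2L1 is known to act on proteasome genes through the antioxidant response element. PSMD5 and PSMB3, chosen after their values were seen, were among the 10 members that passed as lower once control replicate 1 was left out. Each window runs from 250 bases before to 50 bases after the transcript start in RefSeq on GRCh38.p14 and is written 5′ to 3′ on the gene's strand. In all 4 that start lies inside the annotated gene, downstream of its first base, and furthest so in PSME3. Capitals mark matches on either strand to TGACNNNGC, the core of that element, or to CCAAT, the box bound by NF-Y.
PSME3, chr17:42833147-42833446, plus strand: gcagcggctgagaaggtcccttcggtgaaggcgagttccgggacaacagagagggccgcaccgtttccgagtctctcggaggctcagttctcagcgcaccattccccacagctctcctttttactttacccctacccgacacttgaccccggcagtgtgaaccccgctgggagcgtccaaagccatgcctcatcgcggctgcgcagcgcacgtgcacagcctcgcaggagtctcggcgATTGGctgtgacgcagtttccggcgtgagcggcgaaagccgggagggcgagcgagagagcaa
PSMD2, chr3:184298991-184299290, plus strand: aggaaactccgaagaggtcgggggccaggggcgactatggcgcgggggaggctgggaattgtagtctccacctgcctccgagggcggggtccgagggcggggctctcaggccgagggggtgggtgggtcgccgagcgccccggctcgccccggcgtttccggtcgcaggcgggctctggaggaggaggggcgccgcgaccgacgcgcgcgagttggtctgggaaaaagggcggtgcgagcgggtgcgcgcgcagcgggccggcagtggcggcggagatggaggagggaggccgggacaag
PSMD5, chr9:120842873-120843172, minus strand: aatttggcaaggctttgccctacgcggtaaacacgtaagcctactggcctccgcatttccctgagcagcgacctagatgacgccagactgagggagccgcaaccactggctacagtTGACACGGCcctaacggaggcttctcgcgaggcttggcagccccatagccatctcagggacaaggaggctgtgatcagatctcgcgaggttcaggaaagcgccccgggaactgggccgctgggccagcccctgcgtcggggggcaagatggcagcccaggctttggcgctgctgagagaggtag
PSMB3, chr17:38752491-38752790, plus strand: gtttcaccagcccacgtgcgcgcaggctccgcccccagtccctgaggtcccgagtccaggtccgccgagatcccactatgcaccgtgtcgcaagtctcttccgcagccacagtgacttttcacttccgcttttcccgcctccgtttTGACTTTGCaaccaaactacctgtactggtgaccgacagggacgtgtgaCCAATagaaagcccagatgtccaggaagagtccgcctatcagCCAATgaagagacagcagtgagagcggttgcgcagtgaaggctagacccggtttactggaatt
The windows of PSMD5 and PSMB3 each hold 1 match to TGACNNNGC, and those of PSME3 and PSMD2 hold none. Among the other members lower without control replicate 1, PSMB2 and PSMD11 hold none, PSMC4 holds 1 and PSMD3 holds 2. PSMA7 and PSMG3 had no window. PSME3 has 1 match to CCAAT, PSMB3 has 2, and PSMD2 and PSMD5 have none. The RefSeq table gave a window for 41 of the 47 members. TGACNNNGC stood in 12 of these (29.3%), against 13.3% of all 35116 windows of this length, and CCAAT in 19 (46.3%), against 34.6%. In the fit of all libraries the 11 tested members with TGACNNNGC had a median log2 fold change of -0.20. The 25 without it, PSMC3IP among them, had one of -0.06. Without control replicate 1 these medians were -0.07 and -0.02. Neither difference was tested. A match to letters is a description of the window and not evidence of a bound site.

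Among the alpha subunits, 5 of 8 were tested, and 0 rose or fell, beside 12.3% of all tested genes called. PSMA3, a structural alpha subunit, had the largest difference of the 5. It was at 13.7, 12.8 and 13.3 FPKM in replicates 1, 2 and 3 of HYOU1 shRNA, against 28.9, 14.0 and 15.2 FPKM in control replicates 1, 2 and 3. Its log2 fold change of -0.46 did not pass (limma, adjusted p = 0.290) and was -0.14 without control replicate 1, which was far above the other control libraries. PSMA7 was at 110.2, 115 and 117 FPKM in HYOU1 shRNA libraries, against 108, 134 and 143 FPKM in control libraries, with control replicate 1 at the bottom. Without that library PSMA7 passed as lower, at -0.28 (adjusted p = 0.00746), and PSMA5 as higher, at 0.19 (adjusted p = 0.0282).

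None of the 3 constitutive catalytic subunits passed. PSMB5, the chymotrypsin-like subunit and the main target of proteasome inhibitors, was at 55.8, 59.1 and 63.4 FPKM in replicates 1, 2 and 3 of HYOU1 shRNA, against 51.9, 65.5 and 71.6 FPKM in control replicates 1, 2 and 3. PSMB6, the caspase-like subunit, was at 62.0, 62.3 and 64.2 FPKM in HYOU1 shRNA libraries, against 52.2, 63.8 and 66.6 FPKM in control libraries. PSMB7 was at 126, 150.1 and 148 FPKM in HYOU1 shRNA libraries, against 115, 133 and 156 FPKM in control libraries. In all 3 genes the groups overlapped and control replicate 1 was the lowest library. The log2 fold changes were -0.07 for PSMB5 (95% interval -0.43 to 0.28), 0.05 for PSMB6 (-0.25 to 0.35) and 0.08 for PSMB7 (-0.27 to 0.43), so a 1.5-fold change lies outside each interval. Without control replicate 1 they were -0.21 for PSMB5 (-0.38 to -0.04, adjusted p = 0.0526, groups separate), -0.05 for PSMB6 and -0.03 for PSMB7. All 8 tested beta subunits were then below 0, but only 2 of them passed. Of all 12448 tested genes 5961 were below 0 in that fit. With all libraries 4 of the 8 beta subunits were below 0, and after a correction for GC content also 4.

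Of the 8 tested beta subunits 0 passed, beside 12.3% of all tested genes. The lower values were those of PSMB2 and PSMB3, both structural. PSMB2 was at 23.7, 25.2 and 25.3 FPKM in HYOU1 shRNA libraries, against 37.6, 30.2 and 28.8 FPKM in control libraries, and PSMB3 at 93.0, 112 and 107 FPKM in HYOU1 shRNA libraries, against 114, 123 and 140.3 FPKM in control libraries. Neither gene's groups overlapped. Their log2 fold changes of -0.37 and -0.27 did not pass with all libraries (limma, adjusted p = 0.121 and 0.199), and did without control replicate 1, at -0.25 and -0.34 (adjusted p = 0.0125 and 0.0187), and after a correction for GC content, at -0.26 and -0.37 (adjusted p = 0.0142 and 0.0137).

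Of the 6 ATPases 0 passed, and their log2 fold changes ranged only from -0.20 to 0.18. PSMC4 was at 34.1, 36.0 and 33.7 FPKM in HYOU1 shRNA libraries, against 34.3, 42.2 and 43.9 FPKM in control libraries. It passed as lower without control replicate 1, at -0.31 (adjusted p = 0.00401). PSMC3, the ATPase with the highest level, differed by 0.06 and PSMC6 by -0.15, and neither passed under any alternative run.

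Of the 11 other subunits of the regulatory particle, only PSMD2 passed (9.09%, beside 12.3% of all tested genes). PSMD8, a lid subunit, had the highest log2 fold change of the 11 and was at 39.7, 41.5 and 40.4 FPKM in replicates 1, 2 and 3 of HYOU1 shRNA, against 24.0, 32.2 and 36.1 FPKM in control replicates 1, 2 and 3. All HYOU1 shRNA libraries were above all control libraries, which themselves were spread widely. The log2 fold change of 0.42 did not pass (limma, adjusted p = 0.147), and it was 0.25 without control replicate 1 (adjusted p = 0.0187). PSMD11, another lid subunit, was at 15.3, 15.8 and 16.0 FPKM in HYOU1 shRNA libraries, against 17.2, 18.4 and 19.3 FPKM in control libraries, and passed as lower only when control replicate 1 was left out, alone (-0.26, adjusted p = 0.0108) or with the GC correction as well. PSMD14, the deubiquitinase of the lid, differed by -0.06 (95% interval -0.46 to 0.34). PSMD4, a ubiquitin receptor, differed by 0.25 (adjusted p = 0.388).

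Of the 6 tested assembly factors 0 passed, beside 12.3% of all tested genes, with log2 fold changes from -0.50 to 0.70. PSMD5, which binds the ATPase ring during its assembly, was at 15.7, 14.7 and 14.9 FPKM in replicates 1, 2 and 3 of HYOU1 shRNA, against 28.1, 18.4 and 19.0 FPKM in control replicates 1, 2 and 3. Its log2 fold change was -0.50 (limma, adjusted p = 0.118), and -0.31 without control replicate 1 (adjusted p = 0.00617). PSMG4, a chaperone of the alpha ring, was at 2.91, 2.89 and 2.89 FPKM in HYOU1 shRNA libraries, against 1.13, 2.05 and 2.29 FPKM in control libraries. Its log2 fold change of 0.70 (adjusted p = 0.132) was the highest among the 42 members, and it was 0.40 without control replicate 1 (adjusted p = 0.0230). The chaperones PSMG1 and PSMG2, which work as a pair on the same ring, differed by -0.19 and -0.07.

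Of the 5 activators and inhibitors PSME3 alone passed (20%, beside 12.3% of all tested genes). PSME1, which joins with PSME2 in a cytoplasmic activator induced by interferon gamma, was at 41.8, 47.5 and 54.2 FPKM in replicates 1, 2 and 3 of HYOU1 shRNA, against 34.3, 38.6 and 35.3 FPKM in control replicates 1, 2 and 3. The groups did not overlap, but the log2 fold change of 0.40 did not pass (limma, adjusted p = 0.0950), and it was 0.37 without control replicate 1 (adjusted p = 0.0290). PSME2, its partner and neighbour on chromosome 14, differed by -0.10 (95% interval -0.42 to 0.22). PSME3 made up 33.2%, 30.1% and 29.0% of the summed FPKM of PSME1, PSME2 and PSME3 in HYOU1 shRNA libraries, against 46.2%, 44.2% and 45.1% in control libraries. That share was computed after the values of PSME3 were seen and was not tested. PSME4, the largest activator, and PSMF1, an inhibitor of the core, differed by -0.26 and 0.06 and did not pass. PSMC3IP, the member that is no proteasome gene, was at 5.36, 5.29 and 6.40 FPKM in HYOU1 shRNA libraries, against 3.16, 3.86 and 4.46 FPKM in control libraries (log2 fold change 0.57, adjusted p = 0.0773). Of its windows 46.4% occur in MLX on the other strand, which averaged 14.8 FPKM in HYOU1 shRNA libraries and 10.8 FPKM in control libraries.

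**Figure D3:**
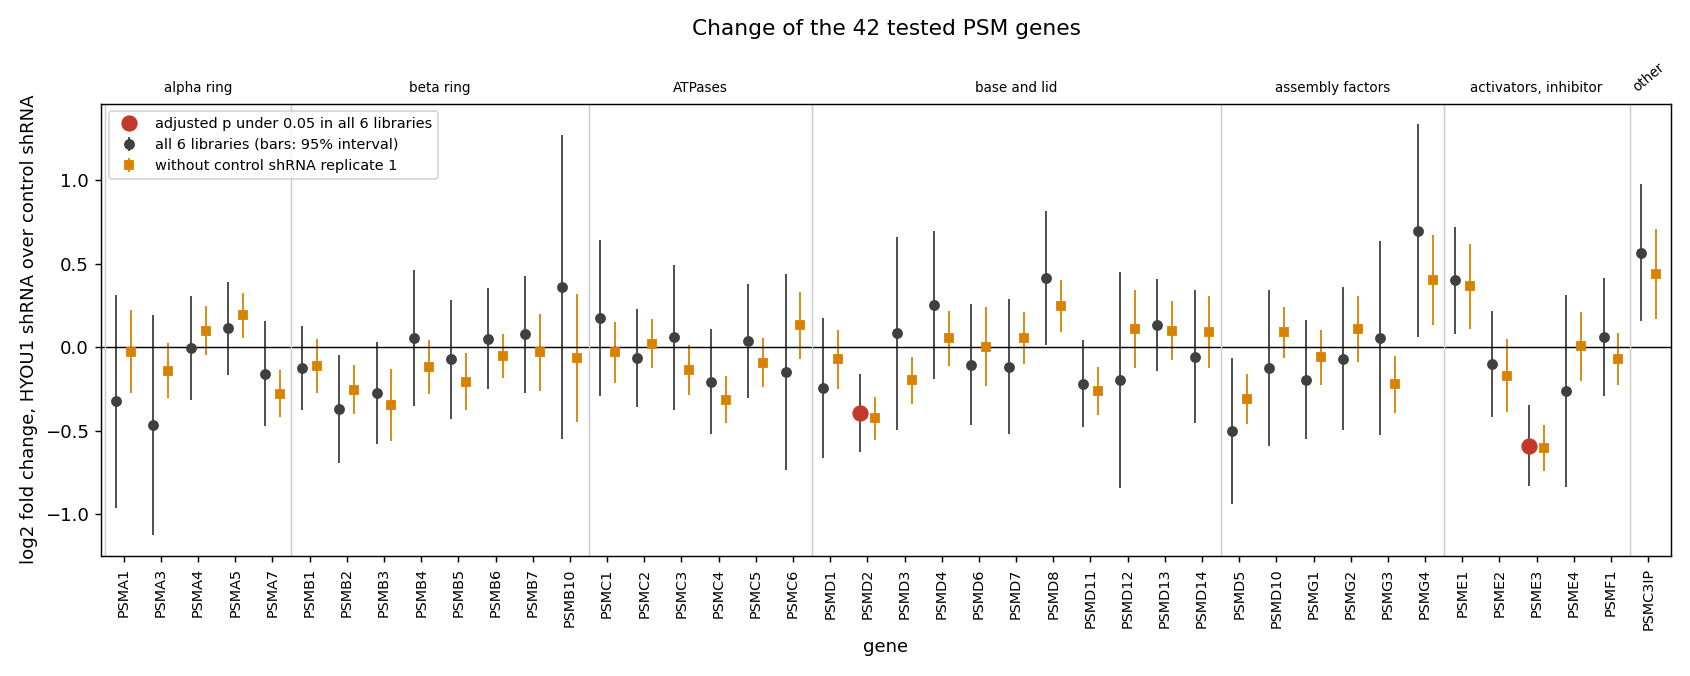
Log2 fold change, HYOU1 shRNA over control shRNA, of the 42 tested members, with all 6 libraries (circles) and without control replicate 1 (squares); bars are 95% intervals and red marks the 2 members that passed with all libraries. PSME3 and PSMD2 lie at -0.59 and -0.39 and move little without control replicate 1, while PSMA3 moves to -0.14 and PSMG4 to 0.40.

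In most members control replicate 1 was the outermost of the 3 control libraries. It was above both other control libraries in 17 of the 42 tested members and below both in 24. The members above had a median transcript GC content of 41.5%, and those below one of 52.7%. Across the 42 genes, which share the same 3 libraries, its shift from the other controls and GC content had a Pearson's r of -0.78 and a Spearman's rho of -0.74. The shift ranged from 0.98 for PSMA3 to -1.28 for PSMB10 on the log2 scale, and was -0.04 for PSME3 and -0.10 for PSMD2, the members that passed. PSMB10 had only 19 fragments in control replicate 1.

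**Figure D4:**
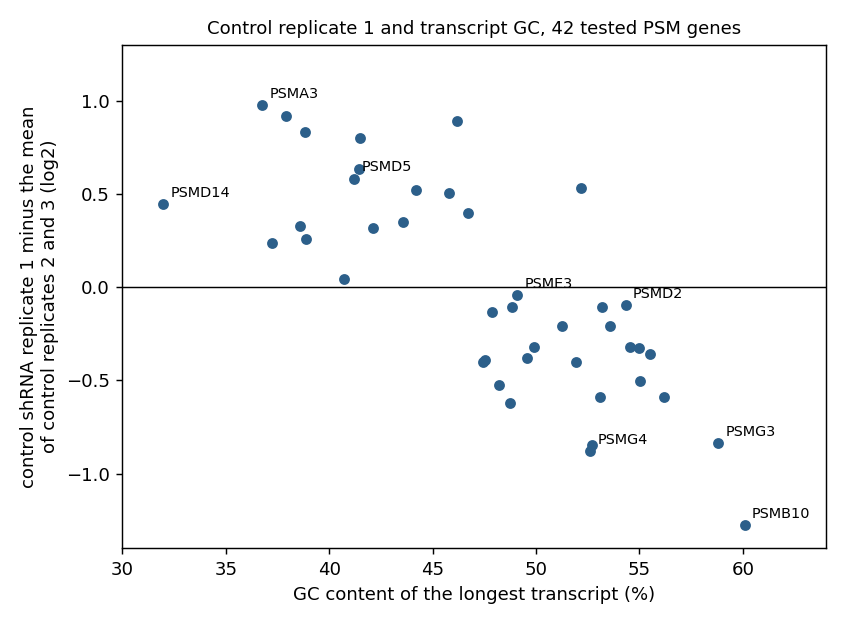
Shift of control shRNA replicate 1 from the mean of control replicates 2 and 3 (log2) against the GC content of the longest transcript, 1 point per tested member (n = 42). The shift is above 0 for most genes under 47% GC and below 0 for most genes above it, and lies near 0 for PSME3 and PSMD2.

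Without control replicate 1, 15 of the 42 members passed, 10 as lower and 5 as higher, a share of 35.7%. Of all tested genes 44.3% were called there, 24.6% as higher and 19.7% as lower. After the GC correction 10 passed, 7 as lower and 3 as higher, a share of 23.8%. Of all tested genes 40.6% were called there, 20.4% as higher and 20.2% as lower. The 10 were all among the 15. Those lower in both were PSME3, PSMD2, PSMD5, PSMB2, PSMB3, PSMC4 and PSMA7, and those higher in both were PSMD8, PSMG4 and PSMC3IP. PSMD11, PSMD3 and PSMG3 passed as lower, and PSME1 and PSMA5 as higher, only without control replicate 1. PSMD3 and PSMG3 were on the other side of 0 with all libraries, at 0.08 and 0.06, and stood at -0.20 and -0.22 without control replicate 1 (adjusted p = 0.0301 and 0.0420). Leaving out control replicate 1 narrowed the 95% intervals from a median half-width of 0.38 to 0.16 on the log2 scale. A 1.5-fold change was then outside the interval of 38 of the 42 members, against 22 with all libraries, and a 2-fold change outside that of all 42, against 39. Leaving out a library for its spread in these same data narrows intervals by itself, so those without control replicate 1 can be too narrow.

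The inducible catalytic subunits replace the constitutive ones in the immunoproteasome. Their RNA was looked at as a share of the pair of genes for the same place in the beta ring. Incorporation of the proteins was not measured. PSMB10, which replaces PSMB7, was at 1.60, 1.47 and 1.51 FPKM in replicates 1, 2 and 3 of HYOU1 shRNA, against 0.601, 1.44 and 1.77 FPKM in control replicates 1, 2 and 3. It held 1.25%, 0.969% and 1.01% of the summed FPKM of both genes in HYOU1 shRNA libraries, against 0.519%, 1.07% and 1.12% in control libraries. The shares overlapped, and their means were 1.08% ± 0.151 in HYOU1 shRNA libraries and 0.906% ± 0.336 in control libraries (SD, n = 3 each). An exact two-sided permutation test gave p = 0.6, where 3 against 3 libraries allow no p under 0.1. Without control replicate 1 the difference turned round, to -0.0219 percentage points, against 0.171 with all libraries. PSMB10 shares 31.7% of its windows with AC040162.1, so its own level is uncertain. It had only 53, 50 and 49 fragments in replicates 1, 2 and 3 of HYOU1 shRNA, and 19, 50 and 59 in control replicates 1, 2 and 3. Counting error is thus large in these shares, most of all in control replicate 1.

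PSMB8 and PSMB9, outside the 47 genes, held larger shares. PSMB9 held 20.1%, 21.5% and 21.5% of the summed FPKM of PSMB9 and PSMB6 in HYOU1 shRNA libraries, against 10.5%, 10.9% and 12.3% in control libraries. PSMB8 held 30.6%, 29.3% and 29.9% of the summed FPKM of PSMB8 and PSMB5 in HYOU1 shRNA libraries, against 27.8%, 22.8% and 25.7% in control libraries. Counted in fragments, the mean share of PSMB9 was 36.1% in HYOU1 shRNA libraries and 21.2% in control libraries. That of PSMB8 was 42.1% in HYOU1 shRNA libraries and 36.6% in control libraries. PSMB8 shares 26.0% of its windows with PSMB8-AS1 on the other strand, so its level is uncertain. PSMB9 rose by 1.12 on the log2 scale (limma, adjusted p = 0.0147), and PSMB8 differed by 0.26 without passing (adjusted p = 0.242). PSMB9 was lost without any one of the HYOU1 shRNA replicates (adjusted p = 0.0778, 0.0885 and 0.0918 without replicate 1, 2 and 3) or control replicate 2 (adjusted p = 0.0588). Those fits called only 126, 85, 49 and 357 of all 12448 tested genes.

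**Figure D5:**
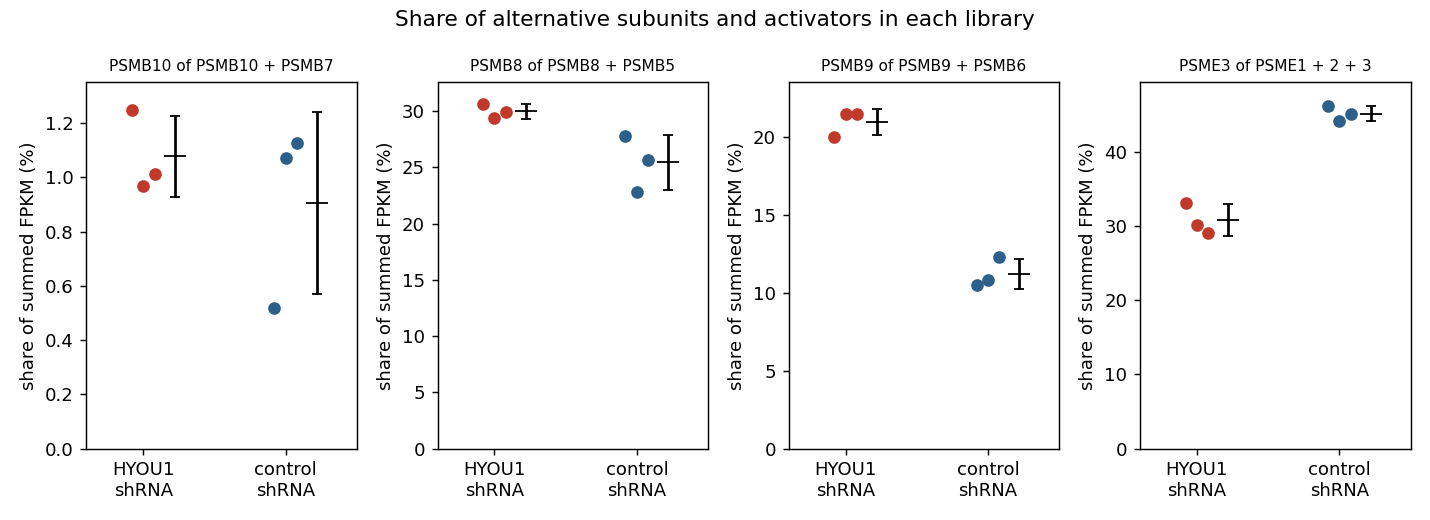
RNA share of PSMB10, PSMB8 and PSMB9, each beside the gene it replaces, and of PSME3 among PSME1, PSME2 and PSME3. Shares are in percent of summed FPKM, 1 point per library with the mean and SD of each group (n = 3) beside it. The HYOU1 shRNA and control groups overlap for PSMB10 and are separate for PSMB8, PSMB9 and PSME3.

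Genes that work with the proteasome were followed in 3 lists chosen by function, with earlier results of these data known. Of 16 partners outside the rule, 1 rose, 1 fell and 14 did not pass, so that 12.5% were called, beside 12.3% of all tested genes. In the fit without control replicate 1, 9 of the 16 passed, 7 as higher and 2 as lower, beside 44.3% of all tested genes. The gene that rose was PSMB9. UBE3C, a ubiquitin ligase that binds the proteasome, fell to 12.2, 12.2 and 10.9 FPKM in HYOU1 shRNA libraries, against 18.3, 17.0 and 17.3 FPKM in control libraries, or by 0.57 on the log2 scale (limma, adjusted p = 0.0260). POMP, the maturation chaperone of the core, was at 46.6, 47.0 and 49.0 FPKM in HYOU1 shRNA libraries, against 55.9, 54.3 and 55.6 FPKM in control libraries. ADRM1, a ubiquitin receptor, was at 54.5, 58.9 and 60.0 FPKM in HYOU1 shRNA libraries, against 27.0, 41.0 and 51.0 FPKM in control libraries. Their groups did not overlap, but their log2 fold changes of -0.22 and 0.59 did not pass (adjusted p = 0.181 and 0.141). Both passed without control replicate 1, at -0.21 and 0.34 (adjusted p = 0.0186 and 0.0236), and neither did after the GC correction, at -0.02 and 0.14.

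Of 24 tested genes around NFE2L1, 1 rose, 4 fell and 19 did not pass. That is 20.8% called, beside 12.3% of all tested genes, 6.6% as higher and 5.66% as lower. With control replicate 1 left out, 14 of the 24 passed, 6 as higher and 8 as lower. That is 58.3%, beside 44.3% of all tested genes in that fit, 24.6% as higher and 19.7% as lower. NFE2L1 itself was at 35.0, 35.0 and 37.5 FPKM in replicates 1, 2 and 3 of HYOU1 shRNA, against 24.6, 36.8 and 38.8 FPKM in control replicates 1, 2 and 3. Its groups overlapped, and its log2 fold change was 0.13 (95% interval -0.32 to 0.58, limma, adjusted p = 0.665). The GC correction gave -0.01, and leaving out control replicate 1 gave -0.08. DDI2, the protease that cleaves NFE2L1, and NGLY1, which removes its sugars, differed by 0.13 and -0.24 and did not pass. NPLOC4, a cofactor of VCP, fell to 8.63, 8.39 and 8.79 FPKM in HYOU1 shRNA libraries, against 16.8, 20.4 and 20.6 FPKM in control libraries, or by 1.15 on the log2 scale (standard error 0.13, adjusted p = 0.00609). VCP, named after its value was seen, fell to 35.0, 34.9 and 36.4 FPKM in HYOU1 shRNA libraries, against 57.3, 56.3 and 56.1 FPKM in control libraries, a log2 fold change of -0.67 (adjusted p = 0.0118). UFD1, which joins NPLOC4 in its complex with VCP, an ATPase that draws proteins out of the ER membrane, had a log2 fold change of 0.09 (adjusted p = 0.662, not passed). SEL1L, of an ER ubiquitin ligase complex, fell by 0.91 on the log2 scale (adjusted p = 0.0465), while SYVN1, the ligase itself, had a log2 fold change of 0.21 (adjusted p = 0.428, not passed). NFYC, a subunit of NF-Y, fell by 0.70 (adjusted p = 0.0340). The gene that rose was MAFF, a small partner protein of NFE2L1 and NFE2L2, with a log2 fold change of 1.08 (adjusted p = 0.0247). Another family member, NFE2L3, was at 5.78, 6.26 and 6.90 FPKM in HYOU1 shRNA libraries, against 4.63, 2.24 and 1.85 FPKM in control libraries, and did not pass (log2 fold change 1.20, adjusted p = 0.0627), but did without control replicate 1, at 1.58 (adjusted p = 5.77e-05).

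Of 22 tested genes for ubiquitin and its carriers, 2 rose, 0 fell and 20 did not pass, so that 9.09% were called, beside 12.3% of all tested genes. Leaving out control replicate 1, 10 of the 22 passed, 9 as higher and 1 as lower. That is 45.5%, beside 44.3% of all tested genes in that fit, 24.6% as higher and 19.7% as lower. UBE2S, which extends ubiquitin chains for the anaphase-promoting complex, was at 92.0, 98.7 and 106 FPKM in HYOU1 shRNA libraries, against 23.3, 49.3 and 55.1 FPKM in control libraries, a rise of 1.31 on the log2 scale (limma, adjusted p = 0.0465) that was 0.92 without control replicate 1. UBQLN4, a shuttle that carries ubiquitinated proteins to the proteasome, rose by 0.63 (adjusted p = 0.0412). UBB, which encodes ubiquitin itself, averaged 288 FPKM in HYOU1 shRNA libraries and 251 FPKM in control libraries, and its log2 fold change of 0.19 did not pass (adjusted p = 0.248). Over the 3 lists 9 of 62 tested genes passed (14.5%, beside 12.3% of all tested genes). None of the 9 did without HYOU1 shRNA replicate 1, 2 or 3, with adjusted p between 0.0541 for NPLOC4 and 0.178 for SEL1L. Those fits called only 126, 85 and 49 of all 12448 tested genes. Without control replicate 2 only NPLOC4 passed, and without control replicate 3 PSMB9, NPLOC4, VCP, MAFF and UBE2S did. Of all tested genes 357 were called without control replicate 2 and 1022 without control replicate 3. Without control replicate 1, 33 of the 62 passed (53.2%, beside 44.3% of all tested genes), 22 as higher and 11 as lower.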

How the data were processed

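Poly(A) RNA of Hep3B cells was sequenced, per the labels' protocols. The authors deposited FPKM per gene for 6 libraries in 1 table, and the aligner and counter are not stated in the sources used. Gene lengths in the table equal the exon union of GENCODE 29 on GRCh38 for all 58735 genes. FPKM steps gave whole fragments for 100% of values within 0.01, and these served depth and 1 alternative. The test was limma 3.58.1 in R 4.3.3 with trend and robust priors on log2(FPKM + 0.1), which understates changes of low genes. It ran over the 12448 genes that averaged 1 FPKM or more, with Benjamini-Hochberg adjustment at 0.05. A run on simulated data took its spread from the libraries without control replicate 1. It therefore does not gauge the fit of all 6 libraries. The GC correction subtracts, in each library, a lowess curve (span 0.3) of log2 deviation on GC content, and leaves 6 genes with no GC value as they were. The voom alternative used the recovered fragments with median-of-ratios size factors.

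Named were HYOU1, NFE2L1, the catalytic subunits, members that passed, the 3 highest and 3 lowest log2 fold changes, and up to 4 called genes a list. Genes beyond these were named after their values were seen. The members and lists were chosen with earlier results of these data known. Alternatives varied the pseudocount, filter, scaling, variance model, gene set, replicate block, GC correction and library left out. The result for 1 gene is not reported here.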

Additional observations from a re-analysis of the deposited data

How the results depend on the processing

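The count of proteasome genes that passed, 2 lower and 0 higher, was 1 with a filter at a mean of 0.1 FPKM, without a filter, on the TPM scale and without the variance trend. After the GC correction it was 10 (3 higher, 7 lower), also with the replicate block, and 15 (4 higher, 11 lower) when control replicate 1 was left out too. Leaving out 1 library at a time gave 0 to 15 (higher 0 to 5, lower 0 to 10). The count of related genes, 4 higher and 5 lower, was 2 higher with a filter at 0.1 FPKM and without the variance trend, and 3 (1 higher, 2 lower) without a filter. After the GC correction it was 27 (16 higher, 11 lower), with the replicate block 25 (15 higher, 10 lower), and without control replicate 1 as well 36 (23 higher, 13 lower). Leaving out 1 library gave 0 to 33 (higher 0 to 22, lower 0 to 11). Of all 12448 tested genes 5048 were called after the GC correction, and 4504 with the replicate block as well. The GC correction without control replicate 1 called 6049. With a filter at 0.1 FPKM 1433 of 20512 tested genes were called, and without a filter 770 of 30059. The TPM scale called 1482 of 12448, and the fit without the variance trend 1484. Fits without HYOU1 shRNA replicate 1, 2 or 3 called 126, 85 and 49 of all 12448 tested genes. Those without control replicate 1, 2 or 3 called 5518, 357 and 1022. Fits on more genes adjust over more tests, and those without 1 library rest on fewer samples. The cause of the shifts in these counts was not tested.

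Deviations of same-numbered libraries from their group means had correlations of 0.12, -0.09 and 0.17. Those of differently numbered libraries ranged from -0.21 to 0.16. With 3 libraries a group, these values cannot settle whether replicate numbers pair the libraries. With the replicate block 0 proteasome genes passed (adjusted p = 0.0534 for PSME3 and 0.101 for PSMD2), and 6 related genes, 3 as higher and 3 as lower. Of all 12448 tested genes 940 were called with that block, 525 as higher and 415 as lower.

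PSMD3 and PSMG3 turned round without control replicate 1, to -0.20 and -0.22 (0.24 and 0.24 without control replicate 3), and to -0.18 and -0.26 with the GC correction as well. The difference in the PSMB10 share of the beta2 pair (PSMB10 and PSMB7) turned to -0.0219 percentage points without control replicate 1, and was at most 0.281 without control replicate 3. Of 62 named genes tested other than HYOU1, 38 kept their sign under every alternative. HYOU1 passed as lower in each. With 3 libraries a group, changes of members under about 1.5-fold were often beyond the precision of the fit of all 6 libraries.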
